A study of Mus musculus with 44 samples.

Results

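The complement genes examined were C1qa, C1qb, C1qc, C2, C3, Cfb, Cfp, C3ar1 and C5ar1, chosen by symbol as a set that joins the macrophage-made C1q subunits, liver-made factors and receptors for complement fragments. A gene was taken as measured when the array annotation gave a probe set that symbol and no other. Of the 9 genes, 8 were measured, with 16 probe sets of 45101 on the array and as 8 of 18193 genes tested. No such probe set was found for C3, which was not analysed here. Each gene was represented by its brightest probe set, by the mean of the 44 arrays, and its other probe sets served as a check.

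The arrays measured liver, spleen and bone marrow RNA of B6C3F1 mice, a hybrid laboratory strain, after 2-butoxyethanol (2BE) or vehicle. 2BE is a glycol ether solvent, and its metabolite butoxyacetic acid is known to lyse rodent red blood cells. At 4 h the liver had 4 2BE and 3 vehicle arrays, and the spleen 4 of each. At 7 d the liver had 5 2BE and 4 vehicle arrays, and bone marrow and spleen 5 of each. All mice were anaesthetised with ketamine and acepromazine before they were killed, whichever group they were in. The tissues were marrow of the right humerus, a piece of the left lateral lobe of the liver and part of a spleen cross-section. The sample titles name the groups 2BE and vehicle, whereas the treatment labels read reduced oxygen and control; the groups here follow the titles. Dose, route, age and sex are not given in the sources used here.

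Complement is a cascade of plasma proteases that marks targets for removal. In the classical pathway, C1q binds antibody complexes or dying cells, and its partner proteases C1r and C1s cleave C4 and C2 to build an enzyme that splits C3. In the alternative pathway, factor B (Cfb) takes the place of C2, properdin (Cfp) stabilises the enzyme, and the split products C3a and C5a signal through receptors encoded by C3ar1 and C5ar1. Hepatocytes make most of the circulating C2, C3 and factor B, whereas C1q comes mainly from macrophages and dendritic cells, and properdin from myeloid cells.

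Intensities were normalised by the authors with RMA, which gives the arrays of a run a common distribution, so every difference is relative to the rest of the RNA of a sample. The median over all probe sets ran from 41.2 to 42.5 in liver at 4 h and from 87.0 to 89.2 in spleen at 4 h. At 7 d it ran from 50.1 to 52.3 in liver, from 86.2 to 89.6 in marrow and from 109.4 to 111.7 in spleen. These 5 sets may have been normalised separately, so levels were tested only within a set. The labelled tissues carried their markers. Summed intensity of 10 hepatocyte markers was at least 262580 on every liver array and at most 3077 on any other array. B cell markers reached 271 at most in liver, against at least 6386.7 in spleen, and neutrophil markers reached at least 164160 on every marrow array. Marrow reached 8263.9 for B cell markers with vehicle, so this list did not separate marrow from spleen. The labels do not say that the arrays of a group came from separate animals, so p-values measure the spread between these samples, and the number of arrays limits the precision.

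Differences below are 2BE minus vehicle on the scale of log2(intensity + 1), with the standard error (SE) of limma, and adjusted p-values are limma's with Benjamini-Hochberg adjustment over 18193 genes. On this scale the change of a dim gene is understated. A gene was called at an adjusted p under 0.05. The complement genes moved mainly in the spleen at 7 d, where 7 of the 8 were called, 6 lower and C3ar1 higher. The background there was 64.7% of all genes called, with 32.4% lower and 32.3% higher. In bone marrow at 7 d C1qa and Cfp were lower, against 20.3% of all genes called and 10.8% called lower. No member was called in liver at 4 h, in spleen at 4 h or in liver at 7 d, where 4.51%, 5.19% and 0.748% of all genes were called. At an unadjusted p under 0.05 the counts of members were 0 in liver at 4 h, 1 in spleen at 4 h and 3 in liver at 7 d. In all, 9 of 40 comparisons were called, 8 lower and 1 higher. The median difference of the 8 members was -0.35 in spleen at 7 d, beside 0.048 for all genes. It was -0.098 in marrow (all genes 0.0065), 0.18 in liver at 7 d (all genes -0.0011), -0.057 in liver at 4 h (all genes -0.017) and 0.057 in spleen at 4 h (all genes -0.032).

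In vehicle tissue the members ordered differently by tissue, on a scale that may differ between the 5 sets. C1qa averaged 599.8 ± 136 in liver at 4 h, 534 ± 49.9 in liver at 7 d, 2551 ± 258 in marrow, 3165 ± 371 in spleen at 4 h and 4737 ± 268 in spleen at 7 d (SD). C1qb, C1qc and Cfp likewise had their highest means in spleen at 7 d and their lowest in liver, where the means at 4 h and 7 d lay within the spread of the arrays at 4 h, except that of C1qb. Cfb averaged 8934 ± 1772 in liver at 4 h and 6667 ± 427 in liver at 7 d, whereas it averaged 613 ± 50.0 and 636 ± 34.4 in spleen at the same times and 91.9 ± 2.66 in marrow. C2 had the same order as Cfb. C5ar1 was highest in marrow, at 391 ± 93.1, and lowest in liver, at 16.4 ± 1.02 and 17.4 ± 1.15, while C3ar1 ran only from 47.4 ± 6.30 in spleen at 4 h to 93.8 ± 9.08 in marrow.

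**Figure D1:**
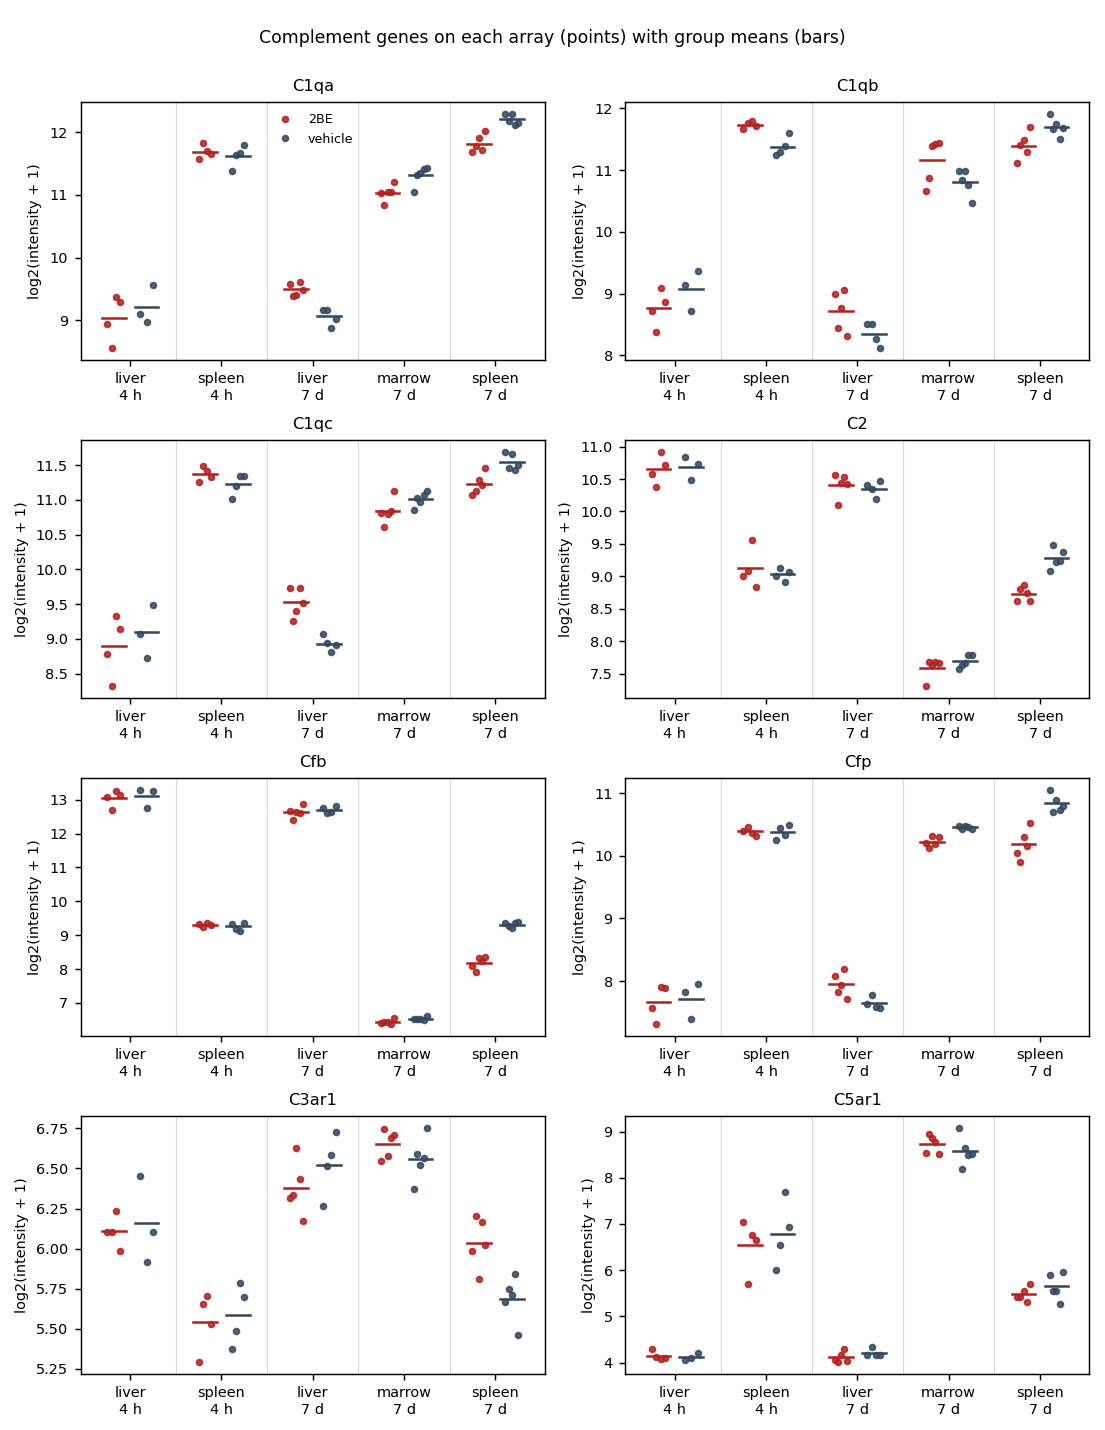
Expression of the 8 measured complement genes on each array, as log2(intensity + 1) on the y axis, by tissue and time on the x axis, with 2BE (red) left of vehicle (dark blue), points for arrays and bars for group means. In the spleen at 7 d the 2BE points of C1qa, C2, Cfb and Cfp lie below all vehicle points, whereas Cfb and C2 in liver overlap between the groups at both times.

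The 3 subunits of C1q are encoded side by side. In the GRCm38.p6 gene table of RefSeq, C1qb lies at chr4:136880126-136886200, C1qc at chr4:136889801-136892936 and C1qa at chr4:136895916-136898844. The genes are 3600 and 2979 bases apart and together span 18719 bases. The promoter table gave C1qb and C1qc, whose upstream sequence is shown because the subunits stand next to each other and fell together in the spleen at 7 d. Both run from base -250 to base -23 from the start used by the promoter table, on the minus strand, at chr4:136886223-136886450 for C1qb and chr4:136892937-136893164 for C1qc. That start is base 136886200 for C1qb, the end of the gene as given above, and base 136892914 for C1qc, with 22 bases of the gene as given above upstream of it. Capitals mark GAGGAA or its complement TTCCTC, a core motif of PU.1, the transcription factor that macrophage development requires.
C1qb: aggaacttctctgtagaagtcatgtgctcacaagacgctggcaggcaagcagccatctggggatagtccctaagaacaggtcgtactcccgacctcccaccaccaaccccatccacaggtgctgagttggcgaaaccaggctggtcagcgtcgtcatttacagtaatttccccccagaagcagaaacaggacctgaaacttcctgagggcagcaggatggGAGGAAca
C1qc: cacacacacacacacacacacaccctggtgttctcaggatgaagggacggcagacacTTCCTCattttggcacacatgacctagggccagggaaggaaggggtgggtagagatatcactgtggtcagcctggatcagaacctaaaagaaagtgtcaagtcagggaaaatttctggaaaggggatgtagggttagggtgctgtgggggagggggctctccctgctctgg
In C1qb the motif lies at -30 to -25 from that start on the strand of the gene, and in C1qc at -193 to -188 on the opposite strand. Among 32851 promoters of the table, 21.2% held this motif in the same window on either strand. Both sequences also held an NF-kB-type motif, GGG and CC with 5 bases of any kind between them, on either strand, with 2 overlapping matches each, as did 42.4% of all promoters. Neither held TTCNNNGAA, a STAT motif found in 6.44% of promoters, TTGCNNAA, a C/EBP motif found in 8.98%, or GAAA followed after 2 bases by GAAA, an interferon-response motif found in 2.70%. A match describes letters and not a bound site.

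All 3 C1q subunits fell in the spleen at 7 d, by similar amounts. C1qa, the A chain, had intensities of 3276, 3504, 3841, 3350.1 and 4150.5 on the 2BE arrays, against 4995, 4662, 5041, 4446 and 4542 on the vehicle arrays. Every 2BE array lay below every vehicle array, as did those of 27.0% of all genes. C1qa fell 1.31-fold (log2 difference -0.39 ± 0.082 SE, adjusted p = 0.000468). C1qb, the B chain, had 2222, 2709.7, 2872, 2501 and 3327 with 2BE, against 3868, 3247, 3442, 2905 and 3303 with vehicle. The groups overlapped, since 2BE replicate 5 exceeded 3 of the vehicle arrays. C1qb fell 1.24-fold (-0.31 ± 0.098, adjusted p = 0.0108), and its other probe sets stood at -0.34 and -0.29. C1qc, the C chain, had 2149.8, 2227, 2506, 2385 and 2823 with 2BE, against 3315, 2824, 3239, 2762 and 2893 with vehicle. Here too only 2BE replicate 5 reached into the vehicle range. C1qc fell 1.25-fold (-0.32 ± 0.086, adjusted p = 0.00368). In bulk tissue, a smaller share of RNA from C1q-expressing cells and less C1q RNA per cell cannot be told apart.

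In the liver at 7 d the subunits stood above vehicle and did not pass the test over all genes. C1qa had 763, 669.6, 678, 781 and 711 with 2BE, against 574, 574, 470.0 and 519.9 with vehicle. C1qc had 845, 612, 675, 853 and 735 with 2BE, against 536, 489, 446 and 479.7 with vehicle. For both genes every 2BE array lay above every vehicle array, as it did for 3.05% of all genes. C1qa differed by 0.43 ± 0.15 (1.35-fold, adjusted p = 0.215, 95% interval 0.12 to 0.74) and C1qc by 0.60 ± 0.18 (1.52-fold, adjusted p = 0.145, interval 0.22 to 0.98). C1qb had 507, 346, 437, 535 and 317 with 2BE, against 362, 362, 308 and 277 with vehicle. Its groups overlapped, at a difference of 0.37 ± 0.17 (adjusted p = 0.442), while its other probe sets stood at 0.56 and 0.21. With only the arrays of the 2 groups in the model, C1qa and C1qc passed, at adjusted p = 0.0236 and 0.0219. They also passed with array weights, at adjusted p = 0.0484 and 0.0300.

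At 4 h no C1q subunit passed in either tissue. In the liver at 4 h C1qa had 491, 375, 657 and 624 with 2BE, against 547, 498 and 754 with vehicle. The groups overlapped, and in all 3 same-numbered pairs the 2BE array was the lower for C1qa, as it was for C1qb and C1qc. C1qa differed there by -0.17 ± 0.17 (adjusted p = 0.672), C1qb by -0.31 ± 0.20 (adjusted p = 0.464) and C1qc by -0.20 ± 0.20 (adjusted p = 0.691). With the replicate number as a block, since same-numbered arrays deviated together here, they stood at -0.25 ± 0.086, -0.34 ± 0.15 and -0.28 ± 0.096. None of these passed (adjusted p = 0.175, 0.290 and 0.177). The labels do not say that the numbers pair arrays. Spleen C1qb at 4 h had 3238, 3459.5, 3562 and 3359.5 with 2BE, against 2436, 2521, 2676 and 3094 with vehicle. All 2BE arrays of C1qb were above all vehicle arrays, as for 4.84% of all genes. C1qb stood 1.27-fold higher there (0.35 ± 0.11, adjusted p = 0.0739). Without vehicle replicate 4 it passed, at 0.42 (adjusted p = 0.0388). Its other probe sets stood at 0.26 and 0.34, and the second of these passed over all probe sets (adjusted p = 0.0233). C1qa at 0.065 ± 0.092 and C1qc at 0.15 ± 0.096 overlapped between the groups.

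In bone marrow C1qa fell slightly, and the probe sets of C1qb disagreed. C1qa had 2083, 1823, 2120.3, 2106 and 2360.2 with 2BE, against 2114, 2559, 2605, 2716 and 2762 with vehicle. The groups overlapped only through vehicle replicate 1, which lay within the 2BE range. C1qa fell 1.21-fold (-0.28 ± 0.081, adjusted p = 0.0250), a call lost without vehicle replicate 3, 4 or 5 or 2BE replicate 2 (adjusted p = 0.0561, 0.0630, 0.0655 and 0.0597). C1qc stood at -0.18 ± 0.084 (adjusted p = 0.162) and passed without 2BE replicate 5 (-0.25, adjusted p = 0.0222). The brightest C1qb probe set, 1437726_x_at, had 1623, 1878, 2695, 2753 and 2778 with 2BE, against 2036, 1829.9, 2029, 1735 and 1419.7 with vehicle. The 2BE arrays split, with replicates 1 and 2 within the vehicle range and the other 3 above it, and the difference was 0.35 ± 0.15 (adjusted p = 0.117). It passed with array weights (0.42, adjusted p = 0.0446) and without 2BE replicate 1 (0.47, adjusted p = 0.0197). Probe set 1434366_x_at split between the same arrays, with 984 and 1213 on 2BE replicates 1 and 2, 1459.5 to 1490.4 on the other 3, and 1005 to 1266 with vehicle (difference 0.21). Probe set 1417063_at had 1892, 1681, 2008, 1985 and 2385 with 2BE, against 1973, 2184, 2205, 2338 and 2391 with vehicle, and stood at -0.16. The suffix x marks probe sets of which some probes also match other transcripts. The direction of C1qb in marrow therefore depends on the probe set, and none of the 3 passed over all probe sets.

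**Figure D2:**
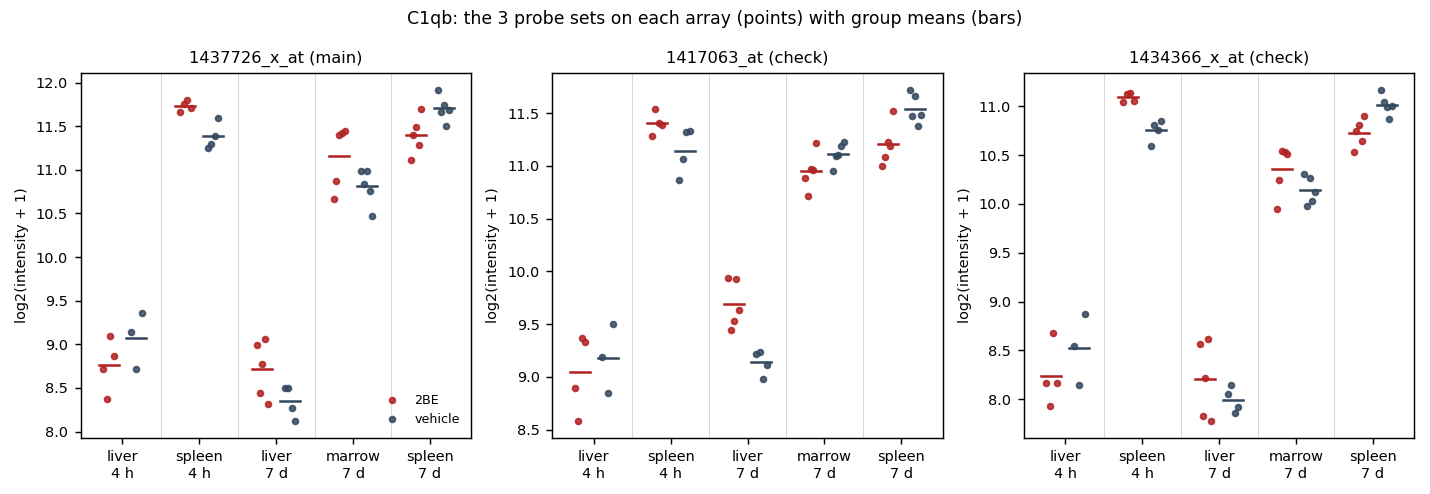
The 3 probe sets of C1qb on each array, as log2(intensity + 1) on the y axis, by tissue and time on the x axis, with 2BE (red) left of vehicle (dark blue) and bars for means. In the spleen at 7 d all 3 are lower with 2BE (-0.31, -0.34 and -0.29), whereas in marrow 2 are above vehicle (0.35 and 0.21) and 1 is below (-0.16).

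Cfb and C2, the homologous proteases of the alternative and the classical pathway, are neighbours as well. Cfb lies at chr17:34856374-34862514 and C2 at chr17:34862602-34882100, with 87 bases between them. The 2 genes fell in the spleen at 7 d, and neither passed in liver. Cfb had 271, 241, 319, 302 and 328 in spleens at 7 d with 2BE, against 659, 613, 587, 657 and 666 with vehicle. The highest 2BE array stood far below the lowest vehicle array. Cfb fell 2.19-fold (-1.13 ± 0.079, adjusted p = 2.7e-08), the largest difference of the 8 members in any of the 5 sets. C2 had 392, 446, 465, 428 and 393 with 2BE, against 539.6, 712, 595, 600.3 and 665 with vehicle. Its groups did not overlap, and C2 fell 1.46-fold (-0.55 ± 0.11, adjusted p = 0.000260). Vehicle replicates 2, 4 and 5, the 3 highest for C2, also had the highest adipocyte marker sums, at 7775.6, 2508.7 and 2015.9, against 364.39 to 458.42 with 2BE and 381.25 and 496.37 on vehicle replicates 1 and 3. Without these 3 arrays, an alternative chosen after seeing the data, C2 stood at -0.42 (adjusted p = 0.0248) and Cfb at -1.10 (adjusted p = 1.3e-05), and the same 7 members passed. The other C2 probe sets stood lower still, at -0.94 and -0.92.

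In liver, the tissue in which Cfb and C2 had their highest intensities, the groups overlapped for both genes at both times. Cfb had 8619, 6639.5, 9863 and 9002 at 4 h with 2BE, against 10099, 6896 and 9808 with vehicle. At 7 d it had 6481, 5364, 6427, 6219.8 and 7479 with 2BE, against 6878, 6272, 6353 and 7165 with vehicle. The spread within each group exceeded the distance between the means. The Cfb difference was -0.061 at 4 h (95% interval -0.36 to 0.24, adjusted p = 0.890) and -0.066 at 7 d (interval -0.33 to 0.20, adjusted p = 0.917). C2 had 1521, 1334, 1940.0 and 1676 at 4 h with 2BE, against 1828, 1436 and 1707 with vehicle. At 7 d it had 1506, 1095, 1389.9, 1476 and 1374 with 2BE, against 1362, 1294, 1172 and 1410.4 with vehicle. C2 differed by -0.041 at 4 h (interval -0.31 to 0.23, adjusted p = 0.923) and by 0.058 at 7 d (interval -0.18 to 0.29, adjusted p = 0.918). Spleen Cfb at 4 h had 648, 606, 652 and 627 with 2BE, against 649, 580.1, 561 and 662 with vehicle, and did not pass (0.049, adjusted p = 0.815). C2 had 515, 543, 756 and 455 there with 2BE, against 516, 556, 479.9 and 537 with vehicle, and stood at 0.094 (adjusted p = 0.730). Replicate 3 with 2BE was highest for C2 and also for the summed adipocyte markers (7542.5, against 968.25 to 1278.4 on the other 2BE arrays) and hepatocyte markers (3077, against 313.27 to 465.26). Without it C2 stood at -0.053 (adjusted p = 0.853), so the direction turned.

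In bone marrow, where Cfb intensity was lowest, it ran from 82.2 to 92.9 with 2BE and from 89.3 to 96.3 with vehicle (-0.10 ± 0.050, adjusted p = 0.183). C2 differed by -0.096 ± 0.076 in marrow (adjusted p = 0.418), where 2BE replicate 1, at 158, lay below the other 4 at 197 to 205. Its other probe sets stood at -0.38 and -0.39 and passed over all probe sets (adjusted p = 0.0260 and 0.00851). With the mean of its probe sets C2 was called lower in marrow, at -0.29 (adjusted p = 0.0171).

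**Figure D3:**
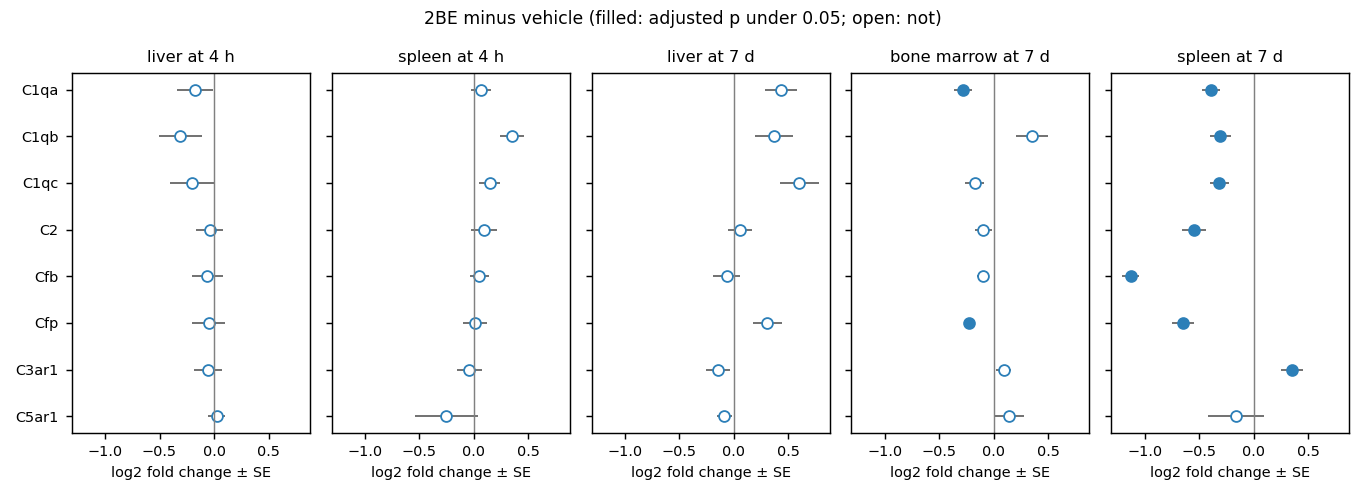
Difference between 2BE and vehicle in log2(intensity + 1) for the 8 complement genes in each tissue and time, as points with bars for ± 1 SE, filled where the adjusted p was under 0.05. In the spleen at 7 d Cfb is lowest (-1.13), followed by Cfp (-0.65) and C2 (-0.55), and C3ar1 is above 0 (0.35), whereas the C1q subunits in liver at 7 d stand at 0.37 to 0.60.

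Properdin, encoded by Cfp on chromosome X (chrX:20925454-20931555), fell in both haematopoietic tissues at 7 d. In the spleen it had 1060.1, 956, 1263, 1143 and 1478 with 2BE, against 2133, 1662, 1908, 1701 and 1781 with vehicle. Its groups did not overlap, and Cfp fell 1.57-fold (-0.65 ± 0.098, adjusted p = 1.5e-05), with the other probe set at -0.55. In marrow Cfp had 1173, 1119, 1273, 1169 and 1268 with 2BE, against 1431, 1374, 1429, 1405 and 1371 with vehicle. These groups did not overlap either, as for 8.55% of all genes in the lower direction, and the fall was 1.17-fold (-0.23 ± 0.051, adjusted p = 0.00659). The other marrow probe set stood at -0.10. In the liver at 7 d Cfp had 269, 227, 245, 290.1 and 208 with 2BE, against 197, 219, 192 and 189 with vehicle. Only 2BE replicate 5 lay inside the vehicle range, and the difference of 0.31 ± 0.13 did not pass (adjusted p = 0.389). At 4 h Cfp stood at -0.050 in liver and 0.0076 in spleen (adjusted p = 0.921 and 0.979), and its other probe set stood on the opposite side of 0 in both, at 0.51 and -0.050.

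The receptor for C3a was the only member higher in the spleen at 7 d. C3ar1 (chr6:122847140-122856157) had 62.4, 72.7, 55.1, 70.9 and 63.9 with 2BE, against 49.7, 52.7, 51.4, 56.4 and 43.1 with vehicle. The groups overlapped through 2BE replicate 3 and vehicle replicate 4. C3ar1 rose 1.28-fold (0.35 ± 0.10, adjusted p = 0.00528). Its other probe sets stood at 0.26 and -0.11 and did not pass, and the mean of its probe sets, at 0.17, did not pass either (adjusted p = 0.189). These intensities lie below the median of all probe sets on the same arrays. Elsewhere C3ar1 differed by -0.053 in liver at 4 h, -0.043 in spleen at 4 h, -0.15 in liver at 7 d and 0.092 in marrow, and none passed. Both other probe sets stood on the opposite side of 0 in liver at 4 h (0.19 and 0.32) and in spleen at 4 h (0.064 and 0.42). In liver at 7 d and in marrow 1 of these 2 did.

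C5ar1 (chr7:16246743-16259540), which encodes the C5a receptor of neutrophils and other myeloid cells, passed in no tissue at either time. In marrow it had 369, 496, 463, 435 and 362 with 2BE, against 543, 292, 397, 359.7 and 365 with vehicle, and the groups overlapped (0.14 ± 0.14, adjusted p = 0.528). Spleen values at 4 h were 131, 51.1, 107 and 100.3 with 2BE, against 63.2, 92.3, 206 and 121 with vehicle. The difference there, -0.25 ± 0.29, was smaller than its SE (adjusted p = 0.692). Vehicle replicate 3, highest for C5ar1, also had the highest summed intensity of 10 neutrophil markers, at 109230, while the 2BE arrays ran from 25810 to 42997 and the other vehicle arrays from 21507 to 44818. The part of these markers in the C5ar1 values was not tested. Spleen C5ar1 at 7 d had 42.0, 42.1, 46.1, 38.4 and 51.0 with 2BE, against 58.3, 46.0, 46.0, 37.6 and 61.6 with vehicle (-0.17 ± 0.26, adjusted p = 0.582). Its other probe set stood at 0.32 and passed over all probe sets (adjusted p = 0.0269), so the 2 probe sets disagreed in direction. In liver, intensities of the brightest probe set lay between 15.1 and 18.7 with 2BE and between 15.7 and 19.1 with vehicle over both times. The other probe set read 33.6 to 41.0 with 2BE and 41.0 to 51.0 with vehicle in liver at 4 h. It stood at -0.17 there, against 0.023 for the brightest, and at -0.031 in marrow. Neither value passed, and both lay on the opposite side of 0 from the brightest probe set.

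The response was then compared between times and tissues, as the difference of the 2BE-minus-vehicle differences. Comparisons between tissues treated all arrays as independent, and the labels do not say whether the tissues came from the same mice. Between 7 d and 4 h in the spleen, 7 members differed, against 51.5% of all genes. Cfb differed by -1.18 ± 0.12 (adjusted p = 1.4e-06), Cfp by -0.66 ± 0.15 (0.00142), C1qb by -0.65 ± 0.15 (0.00141) and C2 by -0.64 ± 0.16 (0.00358). C1qa and C1qc differed by -0.46 each (adjusted p = 0.00564 and 0.00666), and C3ar1 by 0.39 ± 0.15 (adjusted p = 0.0362). The C3ar1 call was lost without any of 8 single arrays (vehicle replicates 3 and 4 and 2BE replicates 1 and 4 at 4 h, vehicle replicates 1 and 5 and 2BE replicates 2 and 4 at 7 d), at adjusted p-values from 0.0526 to 0.0902. With the mean of its probe sets C3ar1 differed by 0.021 (adjusted p = 0.920). Between spleen and liver at 7 d the same 7 members differed, against 57.2% of all genes. Spleen minus liver was -1.06 ± 0.11 for Cfb (adjusted p = 3.1e-09), -0.95 ± 0.13 for Cfp (6.0e-07) and -0.60 ± 0.13 for C2 (0.000176). For the C1q subunits, which pointed in opposite directions in the 2 tissues, it was -0.82 ± 0.12 for C1qa (adjusted p = 6.7e-07), -0.67 ± 0.22 for C1qb (0.0101) and -0.92 ± 0.14 for C1qc (1.6e-06). C3ar1 differed by 0.50 ± 0.13 (adjusted p = 0.00213), or by 0.23 with the mean of its probe sets (adjusted p = 0.0552).

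Marrow and spleen at 7 d differed in 4 members, against 45.2% of all genes. Marrow minus spleen was 1.03 ± 0.11 for Cfb (adjusted p = 5.3e-09), 0.66 ± 0.21 for C1qb (0.0126), 0.45 ± 0.12 for C2 (0.00346) and 0.42 ± 0.13 for Cfp (0.00869). Thus Cfp fell in both tissues and by more in the spleen. The C1qb value rests on the probe set that stood apart from 1417063_at in marrow. Between 7 d and 4 h in the liver 0 members differed by limma, against 0.269% of all genes, with 3 members at an unadjusted p under 0.05. C1qc was at 0.80 ± 0.27 (adjusted p = 0.301; with the replicate block 0.88, adjusted p = 0.0331), C1qb at 0.68 ± 0.26 (0.410) and C1qa at 0.60 ± 0.22 (0.360). Between spleen and liver at 4 h 0 members differed by limma as well, against 1.83% of all genes, and 1 member at an unadjusted p under 0.05. C1qb had the largest difference there, at 0.66 ± 0.22 (adjusted p = 0.177; with the replicate block 0.69, adjusted p = 0.0253). C3ar1 (-0.26) and C5ar1 (0.30) did not differ between marrow and spleen over all arrays. Without spleen 2BE replicate 3 C3ar1 passed (-0.32, adjusted p = 0.0430), and without marrow vehicle replicate 1 C5ar1 passed (0.43, adjusted p = 0.0299).

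Other genes of the complement system were taken as a list of 50, of which 36 were measured. At 7 d in the spleen 10 were higher and 12 lower, which is 61.1% of the list and near the 64.7% of all genes called. The list median of 0.047 lay beside 0.048 for all genes, so neither sets the list apart, and the values below describe single genes. Lower were the C1 proteases C1s1 (-1.02 ± 0.11) and C1ra (-1.0004 ± 0.12), their inhibitor Serping1 (-1.06 ± 0.10) and C6, a part of the lytic pore (-0.93 ± 0.13). Receptors were lower too, namely Cr2, the receptor of B cells and follicular dendritic cells for C3 fragments (-1.65 ± 0.24), and the integrin subunits Itgax (-1.35 ± 0.17) and Itgb2 (-1.07 ± 0.11). Of the regulators, the fluid-phase inhibitor Clu was at -1.22 ± 0.17 and Cd55, which speeds decay of the C3-splitting enzymes, at -1.05 ± 0.15. Cd59a, which blocks the lytic pore on red cells and other cells, rose by 1.19 ± 0.16, and Cd46 by 0.37 ± 0.075. The 10 that rose also included the liver-type lectin Mbl1 (0.55 ± 0.089), whose groups overlapped. All of these values are log2 differences with an adjusted p under 0.05, and those of the genes named were at most 0.000348 (Cd46).

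In marrow 3 of the 36 were higher and 6 lower (25.0% called, against 20.3% of all genes), with a median of -0.0099 beside 0.0065 for all genes. Cr2 fell by 0.71 on the log2 scale and Cd59a rose by 0.43 ± 0.097, in the directions seen in the spleen. Cd93, a receptor of endothelial and myeloid cells first described as a C1q receptor, was at -0.67 ± 0.081. In the liver at 7 d 1 of 36 was called (2.78%, against 0.748% of all genes). It was Fcna, a macrophage ficolin of the lectin pathway (0.57 ± 0.12, adjusted p = 0.0291). In marrow Fcna fell by 0.30 on the log2 scale. At 4 h the 1 gene called in liver and the 1 called in spleen was Cd93, higher by 0.81 ± 0.20 (adjusted p = 0.0261) and 0.60 ± 0.11 (adjusted p = 0.00263). Each call is 2.78% of the list, below the 4.51% of all genes called in liver and 5.19% in spleen at 4 h. The list medians at 4 h were -0.030 in liver (all genes -0.017) and -0.090 in spleen (all genes -0.032), and -0.018 in liver at 7 d (all genes -0.0011).

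**Figure D4:**
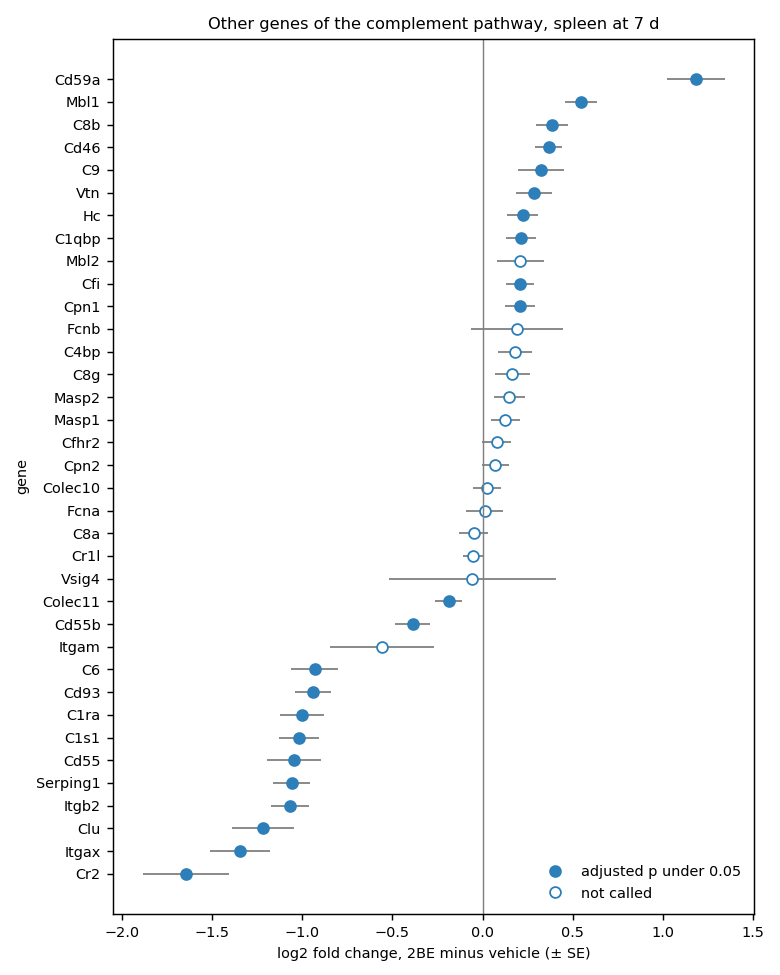
Difference between 2BE and vehicle in log2(intensity + 1) in the spleen at 7 d for the 36 other complement genes measured, with bars for ± 1 SE and filled points where the adjusted p was under 0.05. Cr2 is lowest (-1.65) and Cd59a highest (1.19), and 22 of the 36 points are filled.

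Markers of cell types were set beside the complement genes in the same sets. What each cell type contributed to the complement values was not tested. In the liver at 7 d 0.748% of all genes were called, with 0.506% called higher. There 14 of 15 macrophage markers were above vehicle and 3 passed, Marco (2.19 ± 0.43), Cd68 (0.80 ± 0.17) and Lyz2 (0.54 ± 0.10). Their median of 0.48 lay beside 0.43 for the C1q subunits and -0.0011 for all genes. Their summed intensity ran from 9670.6 to 13069 with 2BE and from 8722.4 to 10643 with vehicle, while 10 hepatocyte markers summed to 263720 to 271440 with 2BE and 262580 to 268610 with vehicle. Among spleen arrays at 7 d 8 of 15 macrophage markers were lower and 1 higher (60.0% called, against 64.7% of all genes). Their median was -0.29, beside -0.32 for the C1q subunits and 0.048 for all genes. Their sums ran from 26519 to 38958 with 2BE and from 44335 to 52184 with vehicle, without overlap. The groups of 27.0% of all genes did not overlap either, with 2BE lower.

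Of all genes in the same spleens, 32.3% were called higher and 32.4% lower. The 8 measured erythroid markers all rose there, with a median of 2.89 and sums of 70032 to 84648 with 2BE against 8424.5 to 22230 with vehicle. The 6 measured B cell markers all fell, with a median of -1.64 and sums of 6386.7 to 17332 with 2BE against 33028 to 39066 with vehicle. Of other lists, 4 of 5 monocyte markers fell (median -0.73), as did 5 of 5 T cell markers (median -0.996), 6 of 6 endothelial markers (median -0.95) and 2 of 5 adipocyte markers (median -0.67), high on the 3 vehicle arrays named with C2, while 0 of 10 neutrophil markers passed (median -0.13). In marrow 9.47% of all genes were called higher and 10.8% lower. There 6 of 8 erythroid markers rose (median 0.46), 6 of 6 B cell markers fell (median -1.42) and 3 of 15 macrophage markers fell (median -0.17). The share of macrophage markers called in marrow was near the 20.3% of all genes called in both directions. In the spleen at 4 h, where C1qb stood above vehicle, 1 of 15 macrophage markers rose (Cd14, 1.28 ± 0.20) with a list median of 0.086, while 2 of 5 monocyte markers fell (Ccr2 and Cx3cr1) and 0 of 5 stood above 0 (median -0.56). The shares of all genes called in that set were 3.30% higher and 1.89% lower. Adipocyte markers there summed to 968.25 to 7542.5 with 2BE and 306.64 to 650.46 with vehicle. In the liver at 4 h 1 of 15 macrophage markers was higher and 1 lower, with a median of -0.21 beside -0.20 for the C1q subunits. The shares of all genes called in liver at 4 h were 3.24% higher and 1.27% lower. The part of each of these cell types in the complement values was not tested. Cr2 is also on the B cell list and Vsig4 on the macrophage list as well as on the complement list.

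**Figure D5:**
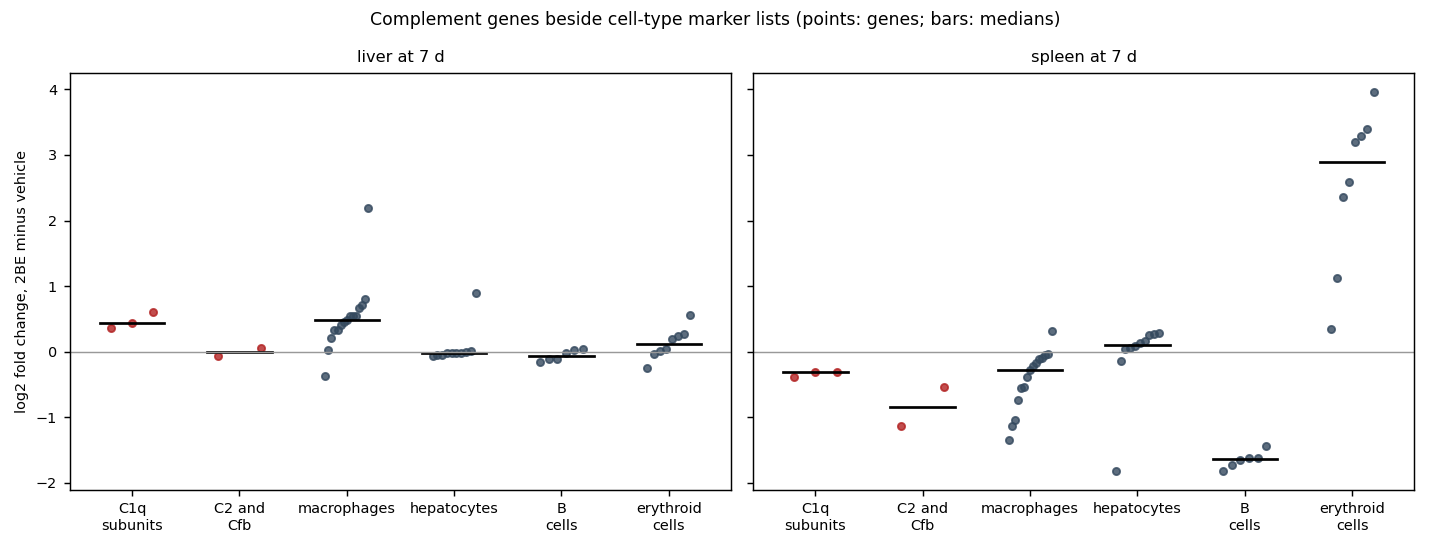
Difference between 2BE and vehicle in log2(intensity + 1) for the C1q subunits, for C2 with Cfb, and for 4 cell-type marker lists, in liver (left) and spleen (right) at 7 d, with points for genes and bars for medians. C1q and macrophage markers lie above 0 in liver (medians 0.43 and 0.48) and below 0 in spleen (-0.32 and -0.29), while erythroid markers in spleen have a median of 2.89.

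The genes with the most similar differences over the 5 sets were found among 8923 genes by the root mean square distance of the 5 log2 differences. Nearest to the mean of the 3 C1q subunits were Riok2 (0.11), Scai (0.12), Cd300a (0.13), Pigp (0.13) and Zfp809 (0.13). Cd300a, an inhibitory receptor of myeloid cells, stood at -0.13 in liver at 4 h, 0.074 in spleen at 4 h, 0.35 in liver at 7 d, -0.21 in marrow and -0.45 in spleen at 7 d. Riok2, the nearest gene, stood at -0.0071, 0.10, 0.47, -0.058 and -0.43 in that order. Scai, the next, stood at -0.33, 0.15, 0.30, -0.060 and -0.53. The C1q mean in the same order was -0.23, 0.19, 0.47, -0.036 and -0.34. Its marrow value averages C1qa at -0.28 and C1qc at -0.18 with C1qb at 0.35, whose probe sets disagreed there. It therefore describes no shared change in marrow, and the ranking rests partly on it. Since C3 was not analysed, Cfb took its place. The Cfb pattern had its largest difference in spleen at 7 d (-1.13), with -0.061 in liver at 4 h and -0.066 in liver at 7 d. Nearest to Cfb were Mfge8 (0.032), Nab1 (0.054), St8sia6 (0.056), Ltbp4 (0.060) and Itpkb (0.061). Mfge8, a secreted protein that bridges dying cells to phagocytes, stood at -1.08 in the spleen at 7 d beside -1.13 for Cfb, and between -0.13 and 0.042 in the other 4 sets.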

How the data were processed

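Liver and spleen RNA came from Qiagen columns and marrow RNA from a PAXgene kit, and Affymetrix arrays were hybridised with biotin-labelled RNA, per the labels' protocols. The authors deposited 1 intensity per probe set and array in 1 table, linear, between 6.16 and 47797.8 and with no value missing, made with RMA per the submitters' processing notes (version not given in the sources used here). All 44 columns were mapped to samples by the labels, 0 were left over, and 0 pairs of arrays held equal values.

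Of 45101 probe sets, 64 controls were left out, and 34945 had 1 gene symbol in the platform annotation, 932 several and 9160 none. The brightest probe set stood for each of 18193 genes. Models were fitted to log2(intensity + 1) by limma 3.58.1 under R 4.3.3 (lmFit with a mean per group over all groups of a tissue, then eBayes), with two-sided tests and Benjamini-Hochberg adjustment over all genes. Differences between tissues came from a fit over the arrays of 1 time, with all arrays treated as independent. The number of arrays limits the precision. The procedure was tested on simulated data.

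All measured members were named, and other complement genes by size among those that passed or by role. The members, the lists (other complement genes, macrophages, monocytes, neutrophils, hepatocytes, erythroid cells, B cells, T cells, adipocytes and endothelial cells) and the tests were chosen with earlier results of these data known. Cfb was put in the place of C3 once the annotation was read. Some of the alternatives were chosen after seeing the data, among them those for differences of responses that leave out an array or use a block.

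Same-numbered arrays of both groups deviated together in all pairs in the liver at 4 h (correlations 0.134, 0.283 and 0.142), above the bar of 0.1 set here. The labels do not say whether the numbers pair arrays in any set. The reported values come from the fit without pairs, and the fit with the replicate number as a block is given beside those of liver at 4 h where it bears on them. In the other sets at least 1 pair was under 0.1, though other pairs there were above it, up to 0.55 in spleen at 4 h. Gene coordinates and promoters are RefSeq's on GRCm38.p6, and 6 of the 9 members had a promoter in the table used here.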

Additional observations from a re-analysis of the deposited data

Results flagged for a closer look

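In 4 of 72 groups of arrays, 1 array stood apart from the rest, judged by its gap to the nearest array as a share of the range of the group. Chance gives about 1 in 20 groups. C2 in marrow with 2BE had replicate 1 at 158 and the nearest array at 197 (0.851 of the range). C2 in liver at 7 d with 2BE had replicate 2 at 1095 and the nearest at 1374 (0.712). C1qa in marrow with vehicle had replicate 1 at 2114 and the nearest at 2559 (0.714). C5ar1 in liver at 7 d with vehicle had replicate 2 at 19.1 and the nearest at 16.9 (0.968).

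The response to 2BE differed between times or tissues for 18 values, as log2 differences of the 2BE-minus-vehicle differences. In spleen, 7 d minus 4 h was -1.18 for Cfb, -0.66 for Cfp, -0.65 for C1qb, -0.64 for C2, -0.46 for C1qa, -0.46 for C1qc and 0.39 for C3ar1. At 7 d, spleen minus liver was -1.06 for Cfb, -0.95 for Cfp, -0.92 for C1qc, -0.82 for C1qa, -0.67 for C1qb, -0.60 for C2 and 0.50 for C3ar1. At 7 d, marrow minus spleen was 1.03 for Cfb, 0.66 for C1qb, 0.45 for C2 and 0.42 for Cfp.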

How the results depend on the processing

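The 7 calls in spleen at 7 d held when any 1 array was left out (7 to 7 calls), and so did the absence of calls in liver at 4 h (0 to 0) and at 7 d (0 to 0). Leaving out 1 array gave 0 to 1 calls in spleen at 4 h and 1 to 3 in marrow (main count 2). Over all genes those ranges were 467 to 1088 in liver at 4 h, 643 to 1042 in spleen at 4 h, 36 to 247 in liver at 7 d, 2910 to 3878 in marrow and 10697 to 12473 in spleen at 7 d. Of the response differences, leaving out 1 array gave 6 to 7 for spleen over time, 7 to 7 for spleen minus liver at 7 d, 4 to 5 for marrow minus spleen, 0 to 0 for liver over time and 0 to 0 for spleen minus liver at 4 h. In liver at 7 d 2 members were called, against 0, with only the 2 groups compared and with array weights, where 248 and 405 genes were called against 136. The cause was not tested. The other calls lost were those of C1qa in marrow and of C3ar1, given with their values in the text above, and C3ar1 was also lost after a further quantile normalization for spleen over time (0.27, adjusted p = 0.127). A filter to genes with a group mean above the median of all probe sets left out C3ar1 in spleen. With it 6 members were called in spleen at 7 d, 0 higher, beside 8862 of 11491 genes. For spleen over time 6 members differed, 0 in the positive direction, beside 7340 of 11741 genes.

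With the replicate number as a block, 0 members were called in liver at 4 h, where same-numbered arrays deviated together in all pairs, and 470 genes against 821. In the other sets same-numbered arrays did not deviate together in every pair. There the block gave 0 members in spleen at 4 h, 2 in liver at 7 d (C1qa and C1qc, adjusted p = 0.0421 and 0.0200), 2 in marrow and 7 in spleen at 7 d. Response differences with the block numbered 1 for liver over time (C1qc, 0.88, adjusted p = 0.0331), 7 for spleen over time, 1 for spleen minus liver at 4 h (C1qb, 0.69, adjusted p = 0.0253), 7 for spleen minus liver at 7 d and 5 for marrow minus spleen.

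No call of a member reversed. An uncalled value changed sign under an alternative and was still not called in 65 cases. Each comparison and setting was counted, so the same value can count several times. A further quantile normalization moved the share of higher calls among all genes to 57.4% in liver at 4 h (71.9% before) and to 52.3% in spleen at 4 h (63.7% before). Few arrays and dim probe sets, such as those of C5ar1 in liver, limit what could be detected.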
